A study of Rattus norvegicus with 9 samples.

Results

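The urea cycle and the breakdown of amino acids that feeds it are represented here by 10 genes: Cps1, Otc, Ass1, Asl and Arg1, which encode the enzymes of the cycle, and Gls2, Sds, Hal, Tat and Tdo2, which encode enzymes that release ammonia from amino acids or start their breakdown. They were chosen by name, and all 10 had a row among the 24496 genes of the deposited table and passed the filter on low counts, as did 11924 genes in all. The libraries came from liver of 9 female wild-type Wistar rats, 1 library per animal, and every rat had eaten western diet from 10 weeks of age, had been ovariectomised after 6 weeks of that diet and had received degarelix. Degarelix blocks the receptor for gonadotropin-releasing hormone and so lowers pituitary output of the gonadotropins. Osmotic pumps delivered vehicle to 5 rats and follicle-stimulating hormone (FSH) at 6 µg per kg per day to 4 rats. Both groups had limited food for 12 days and free food for 7 days, and the tissue was collected at 19 weeks following 4 h without food. The comparison of FSH with vehicle asks how FSH acts on the liver when ovarian hormones are lost and the animals' own gonadotropins are suppressed.

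Ammonia is toxic, and the liver turns it into urea in a pathway that is split between compartments of the hepatocyte. Carbamoyl phosphate and citrulline are made in the mitochondrion, and argininosuccinate, arginine and urea are made in the cytosol. Hepatocytes near the portal tract carry most of this activity, while hepatocytes around the central vein take up what ammonia is left and store it as glutamine. Glucagon, acting through cyclic AMP, and glucocorticoids are known to raise transcripts of many of these enzymes in fasting and on protein-rich diets. The libraries are from whole liver and carry no position, so "periportal" is background here and was not measured.

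No gene of this group passed the threshold of an adjusted p (false discovery rate, FDR) of 0.05 in edgeR's quasi-likelihood test, 0 of 10, against 0.0335% of all tested genes (0.0252% higher and 0.00839% lower with FSH). DESeq2's Wald test called 0 of 10 as well, against 1.65% of the 10991 genes to which it gave an adjusted p. Levels are given in CPM, counts per 1000000 counts of the library after scaling between libraries, and serve to compare animals within a gene, not genes with each other. Tat, tyrosine aminotransferase, had the largest difference, 959 ± 327 CPM (SD, n = 4) with FSH and 1768 ± 764 CPM (SD, n = 5) with vehicle. It was the only 1 of the 10 with an unadjusted p under 0.05 in edgeR, where 11.6% of all tested genes had one (5.14% with a lower level in FSH livers). It was also the only 1 whose groups did not overlap, as 4.11% of tested genes did, 1.92% with every FSH library below every vehicle library. Of the 10 genes 7 had a fold change below 0, against 49.5% of tested genes, with a median log2 fold change of −0.22 against 0.0019 over all tested genes. Across livers 43 of the 45 pairs of these genes had a correlation above 0, so their signs are not separate observations. The p-values are 2-sided, fold changes are FSH over vehicle throughout, and in whole tissue fewer cells of a type and less RNA per cell cannot be told apart.

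**Figure D1:**
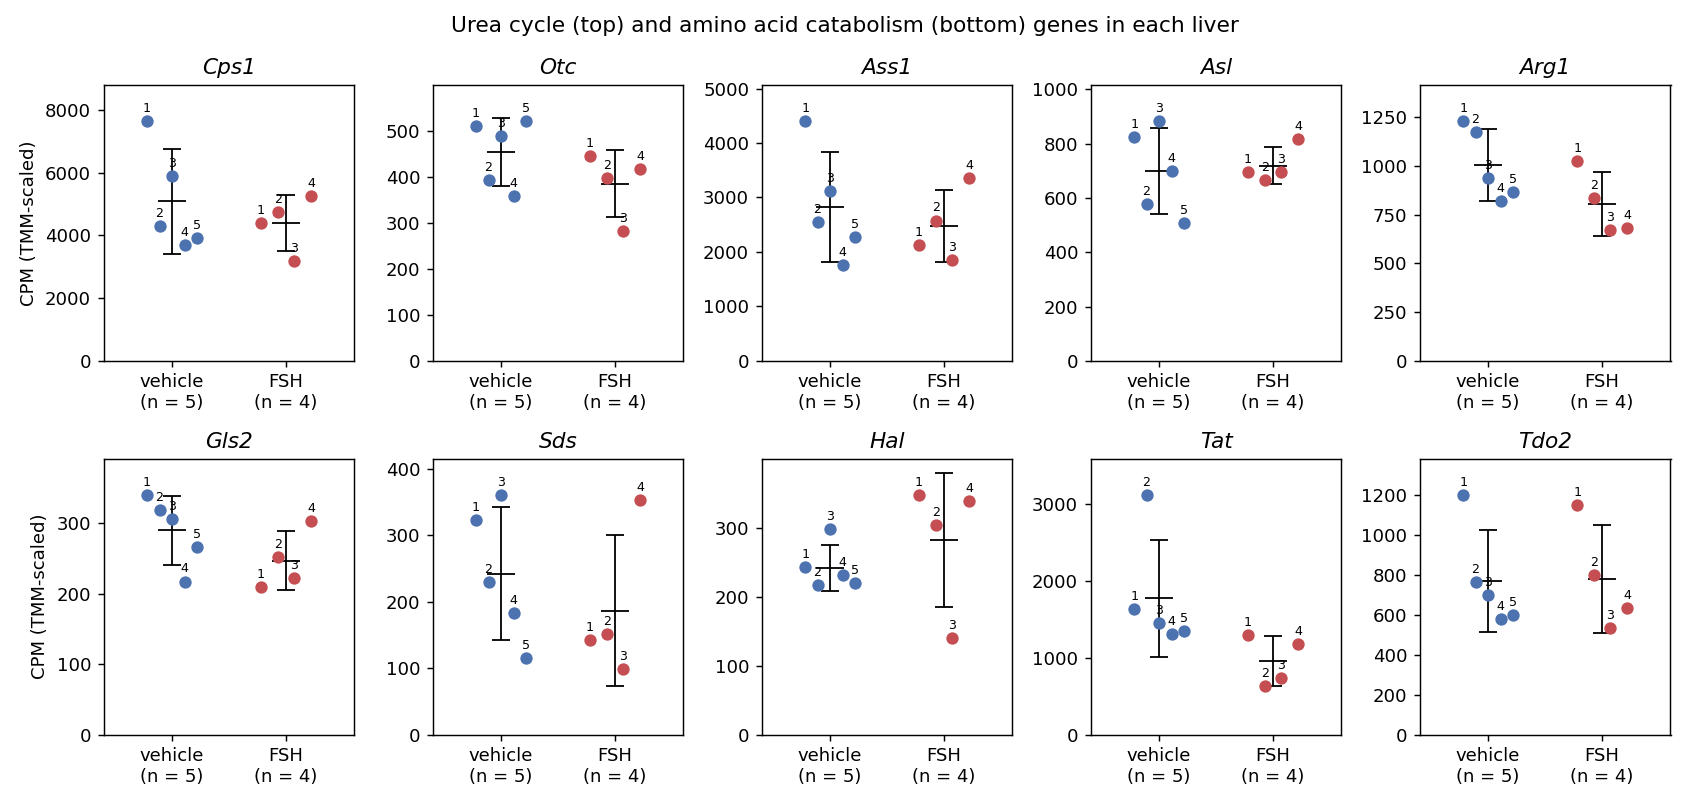
Level of each of the 10 genes in CPM (vertical axes, each starting at 0) in every liver, by group, with the replicate number beside each point and the mean and SD as bars. The groups overlap for 9 genes, and for Tat the highest FSH liver (1296 CPM) sits just under the lowest vehicle liver (1304 CPM), with vehicle replicate 2 at 3116 CPM.

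Library totals lay between 19295580 and 28672439 counts with vehicle and between 23430807 and 27008941 counts with FSH, so a single read was worth 0.0353 to 0.0532 CPM. The 10 genes together took 1.02 to 1.77% of the counts with vehicle and 0.875 to 1.32% with FSH. All 9 hepatocyte markers checked were among the tested genes, and their summed level was 180059 to 283628 CPM with FSH and 202518 to 249715 CPM with vehicle. FSH replicate 1 had the largest share of counts in Alb, which encodes albumin, at 19.4%, and FSH replicate 3 the smallest, at 10.5%. Among markers of other cells, the 8 endothelial markers summed to 243 to 336 CPM with FSH and 199.996 to 275 CPM with vehicle and all 8 had fold changes above 0. The 8 stellate cell markers summed to 173 to 206 CPM with FSH and 220.1 to 285 CPM with vehicle, without overlap, and 7 of 8 had fold changes below 0. Most of that sum was Col3a1, with a mean of 115 CPM with FSH and 158 CPM with vehicle. Col3a1 was the only 1 of the 8 with every FSH library below every vehicle library, as in 1.92% of tested genes. The 4 erythroid markers, all with fold changes above 0, summed to 121 to 490.1 CPM with FSH and 75.9 to 157 CPM with vehicle. Kupffer cell and macrophage markers summed to 488 to 746 CPM with FSH and 308 to 793 CPM with vehicle, cholangiocyte markers to 9.33 to 17.7 CPM with FSH and 11.9 to 20.7 CPM with vehicle, lymphocyte markers to 2.92 to 4.51 CPM with FSH and 2.48 to 6.00 CPM with vehicle, neutrophil markers to 0.755 to 2.55 CPM with FSH and 0.504 to 2.12 CPM with vehicle and markers of pancreas, gut and kidney to 43.7 to 74.1 CPM with FSH and 28.2 to 69.1 CPM with vehicle, where Ins1 and Umod were listed at 0. No marker passed in edgeR. At an unadjusted p under 0.05 in edgeR were 10 of the 53 tested markers (18.9%, against 11.6% of all tested genes), 5 endothelial, 2 hepatocyte and 1 erythroid higher and 2 stellate lower. DESeq2 called 3 of 45 with an adjusted p, Clec4g (endothelial), Col3a1 (stellate) and Hbb (erythroid). That is 6.67%, against 1.65% of all genes to which it gave an adjusted p. The part of these shifts in the values below was not tested.

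Tat begins the breakdown of tyrosine by moving its amino group to 2-oxoglutarate and is a textbook target of glucocorticoids. It stood at 1628, 3116, 1448, 1304 and 1343 CPM in vehicle replicates 1 to 5 and at 1296, 628, 735 and 1178 CPM in FSH replicates 1 to 4. FSH replicates 2 and 3 were the lowest of the 9 livers, FSH replicates 1 and 4 lay close to the vehicle animals, and vehicle replicate 2 was far above every other liver. The log2 fold change was −0.88 (SE 0.31, 95% interval −1.56 to −0.20, FDR 0.34 in edgeR). It was −0.58 without vehicle replicate 2 and was below 0 in each of the 15 alternative fits, with adjusted p-values from 0.0993 (DESeq2) to 0.540 (edgeR without FSH replicate 3). A fold change of this size or larger, in either direction, was seen in 1.62% of tested genes. Without scaling factors, the groups were 1309 to 3311 CPM and 638 to 1208 CPM, again without overlap.

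The first enzymes of the cycle work in the mitochondrion. Cps1, carbamoyl-phosphate synthase 1, fixes ammonia and is the entry step; it stood at 7649, 4285, 5879.9, 3702 and 3921 CPM in vehicle replicates 1 to 5 and at 4398, 4742, 3189.5 and 5263 CPM in FSH replicates 1 to 4. Vehicle replicate 1 was the highest liver and FSH replicate 3 the lowest, and the other FSH livers fell inside the vehicle range. Cps1 had a log2 fold change, FSH over vehicle, of −0.21 (SE 0.23, 95% interval −0.72 to 0.30, FDR 0.774 in edgeR). Leaving out vehicle replicate 1 gave −0.016, and leaving out FSH replicate 3 gave −0.087. Otc, ornithine carbamoyltransferase, joins carbamoyl phosphate to ornithine; it stood at 510.1, 393, 488, 359 and 522 CPM with vehicle and 446, 398, 281 and 417 CPM with FSH. Only FSH replicate 3 lay below the vehicle range. Otc had −0.24 (SE 0.16, 95% interval −0.58 to 0.11, FDR 0.601 in edgeR) on the log2 scale, and −0.12 without FSH replicate 3.

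The later enzymes of the cycle work in the cytosol. Ass1, argininosuccinate synthase, condenses citrulline with aspartate, and its CPM values were 4405, 2542, 3117, 1763 and 2271 with vehicle and 2135, 2577, 1848 and 3358 with FSH. All FSH livers lay inside the vehicle range, and the fold change on the log2 scale, −0.19 (SE 0.26, 95% interval −0.76 to 0.39, FDR 0.831 in edgeR), turned to 0.033 without vehicle replicate 1 and was −0.37 without FSH replicate 4. The reference gene table lists 2 Ass1 pseudogenes, and none has a row of its own in the deposited table, so the Ass1 count is uncertain where reads were shared. Asl, argininosuccinate lyase, cuts argininosuccinate into arginine and fumarate, and stood at 825, 577, 884, 701 and 509 CPM with vehicle and 695, 665, 694 and 819 CPM with FSH. The FSH livers were closer together than the vehicle livers and lay inside their range, with 0.039 (SE 0.16, 95% interval −0.31 to 0.39, FDR 0.951 in edgeR) on the log2 scale. Its sign changed on leaving out FSH replicate 4 or either of vehicle replicates 2 and 5. Arg1, arginase 1, releases urea from arginine. Its values were 1231, 1172, 937, 818 and 865 CPM with vehicle and 1024, 838, 674 and 680.1 CPM with FSH. FSH replicates 3 and 4 lay below every vehicle liver, FSH replicates 1 and 2 within the vehicle range. Arg1 had a log2 fold change, FSH over vehicle, of −0.32 (SE 0.17, 95% interval −0.69 to 0.045, FDR 0.495 in edgeR), which lay between −0.46 and −0.24 when any 1 of the 9 animals was left out.

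The 5 enzymes of the cycle together took 0.761 to 1.41% of the counts with vehicle (mean 1.01 ± 0.268%, SD, n = 5) and 0.696 to 1.04% with FSH (mean 0.871 ± 0.15%, SD, n = 4). Those ranges overlap in part. Vehicle replicates 1 and 3 lay above every FSH liver, and FSH replicate 3 lay below every vehicle liver. The lower bounds of the 5 fold changes ran from −0.76 for Ass1 to −0.31 for Asl, and the upper bounds from 0.045 for Arg1 to 0.39 for Asl.

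**Figure D2:**
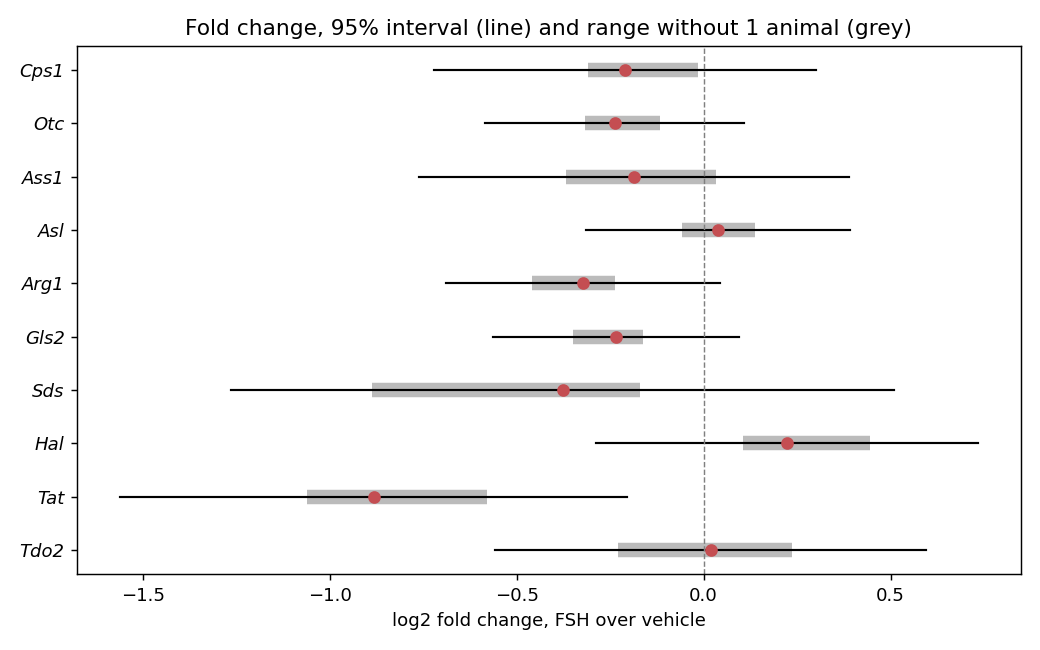
Log2 fold change of FSH over vehicle (horizontal axis) for each gene, with its 95% interval as a black line and, in grey, the range when any 1 of the 9 animals was left out. Among these 10 genes, Tat is the only gene whose interval (−1.56 to −0.20) does not include 0, and the ranges of Ass1, Asl and Tdo2 cross 0.

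Enzymes that supply the cycle with nitrogen gave values on both sides. Gls2, the liver type glutaminase, frees ammonia from glutamine next to Cps1 in the mitochondrion. It stood at 341, 319.6, 307, 217 and 266 CPM with vehicle and 209, 252, 222 and 304 CPM with FSH. FSH replicate 1 was the lowest liver, just under vehicle replicate 4, and the rest of the FSH livers lay inside the vehicle range. On the log2 scale Gls2 had −0.23 (SE 0.15, 95% interval −0.56 to 0.10, FDR 0.587 in edgeR), and −0.35 without FSH replicate 4. Sds, serine dehydratase, turns serine into pyruvate and ammonia and so joins amino acid breakdown to gluconeogenesis. Its values were 323, 229, 362, 183 and 116 CPM with vehicle and 143, 152, 99.0 and 353 CPM with FSH. FSH replicate 4 was among the highest livers and the other 3 FSH livers were among the lowest 4 livers of all. Sds had −0.38 (SE 0.40, 95% interval −1.26 to 0.51, FDR 0.767 in edgeR) on the log2 scale, which became −0.89 without FSH replicate 4 and −0.17 without FSH replicate 3.

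Hal, histidine ammonia-lyase, removes ammonia from histidine. It stood at 243, 217, 299, 231 and 219.9 CPM with vehicle and 348, 303, 139 and 338 CPM with FSH. Here 3 FSH livers lay above every vehicle liver and FSH replicate 3 lay below every vehicle liver. Hal had 0.22 (SE 0.23, 95% interval −0.29 to 0.73, FDR 0.762 in edgeR) on the log2 scale, from 0.11 without FSH replicate 1 to 0.44 without FSH replicate 3. Tdo2, tryptophan 2,3-dioxygenase, opens the ring of tryptophan at the start of the kynurenine pathway and, like Tat, is a known glucocorticoid target. It stood at 1199.7, 763, 699, 577 and 600.1 CPM with vehicle and 1146, 800.1, 531 and 634 CPM with FSH. In each group replicate 1 was the highest liver, and the group means were nearly the same, 778 ± 269 CPM (SD, n = 4) with FSH and 768 ± 253 CPM (SD, n = 5) with vehicle. On the log2 scale Tdo2 had 0.019 (SE 0.26, 95% interval −0.56 to 0.60, FDR 0.988 in edgeR), which became −0.23 when FSH replicate 1 was left out and 0.24 when vehicle replicate 1 was.

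Most of these genes varied between animals of the same group by more than the typical tested gene. The coefficient of variation (SD over mean of CPM) in the vehicle group was above the median over all tested genes, 13.6%, for 10 of 10 genes. It ran from 13.8% for Hal, close to that median, to 41.4% for Sds and 43.2% for Tat, where vehicle replicate 2 was far above the others. In the FSH group it was above the median of 12.3% for 9 of 10 genes, with 60.8% for Sds and 9.52% for Asl, the exception. From the lowest to the highest of the 9 livers Tat spanned 4.96-fold, Sds 3.65-fold and Gls2 1.63-fold. Vehicle replicate 1 was the highest liver for 5 genes (Cps1, Ass1, Arg1, Gls2 and Tdo2) and among the highest 3 for 9 of 10. FSH replicate 3 was the lowest liver for 6 genes (Cps1, Otc, Arg1, Sds, Hal and Tdo2) and among the lowest 3 for 9 of 10. FSH replicate 4 was the lowest for none and among the highest 3 for 5 genes. FSH replicate 3 is also the library with the smallest share of counts in Alb, and the part of that in its low values was not tested.

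**Figure D3:**
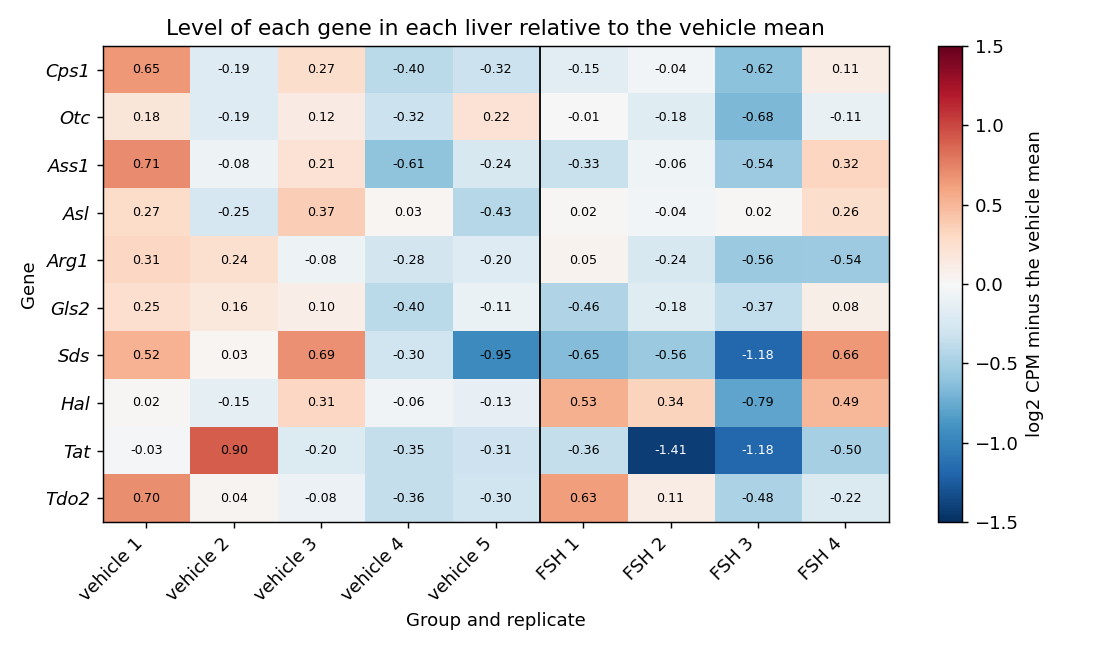
Log2 CPM of each gene (rows) in each liver (columns) minus the mean over the vehicle livers, with the FSH livers right of the line. The row of Tat reaches −1.41 and −1.18 in FSH replicates 2 and 3 and 0.90 in vehicle replicate 2, and the column of FSH replicate 3 is negative in 9 of 10 rows.

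Some of the 10 genes varied together from animal to animal. Over the 9 livers 43 of 45 pairs had a Pearson correlation of log2 CPM above 0, with a median r of 0.509, and all values share the depth and scaling of the same 9 libraries. No such count was made for pairs of other genes, so it is not shown to be particular to these 10. The closest pair was Cps1 and Ass1, the entry step and the first cytosolic step of the cycle, with r = 0.949 (exact permutation p = 0.000176, adjusted p = 0.00794) and rho = 0.917 (exact permutation p = 0.00131, adjusted p = 0.059). After adjustment over the 45 pairs, 1 pair passed by Pearson's r and 0 by Spearman's rho (10 and 8 pairs had an unadjusted permutation p under 0.05). For Cps1 and Ass1, r was 0.890 without the 2 animals farthest from the median of Cps1 and 0.948 for deviations from the group means. Leaving out 1 animal kept r between 0.900 and 0.960, but without vehicle replicate 1 its adjusted p was 0.137 (exact permutation). Groups of 4 and 5 animals are too small for a value within each group. 

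Next came Ass1 and Gls2 with r = 0.866 (exact permutation p = 0.00243, adjusted p = 0.0547) and rho = 0.8 (exact permutation p = 0.0138, adjusted p = 0.193), and r was 0.790 without the 2 animals farthest from the median of Ass1. Sds followed Cps1 with r = 0.807 (exact permutation p = 0.00688, adjusted p = 0.103) and rho = 0.767 (exact permutation p = 0.0214, adjusted p = 0.193), and r was 0.753 without the 2 animals farthest from the median of Cps1. Arg1 went with Tdo2, with r = 0.765 (exact permutation p = 0.0168, adjusted p = 0.151) and rho = 0.8 (exact permutation p = 0.0138, adjusted p = 0.193), and r was 0.735 without the 2 animals farthest from the median of Arg1. Tat was closest to Arg1, with r = 0.699 (exact permutation p = 0.0305, adjusted p = 0.171) and rho = 0.767 (exact permutation p = 0.0214, adjusted p = 0.193), and r was 0.452 without the 2 animals farthest from the median of Arg1. With Cps1, Tat had r = 0.257 (exact permutation p = 0.504, adjusted p = 0.62) and rho = 0.267 (exact permutation p = 0.493, adjusted p = 0.6), and r was −0.163 without the 2 animals farthest from the median of Cps1. None of these 5 pairs passed after adjustment.

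**Figure D4:**
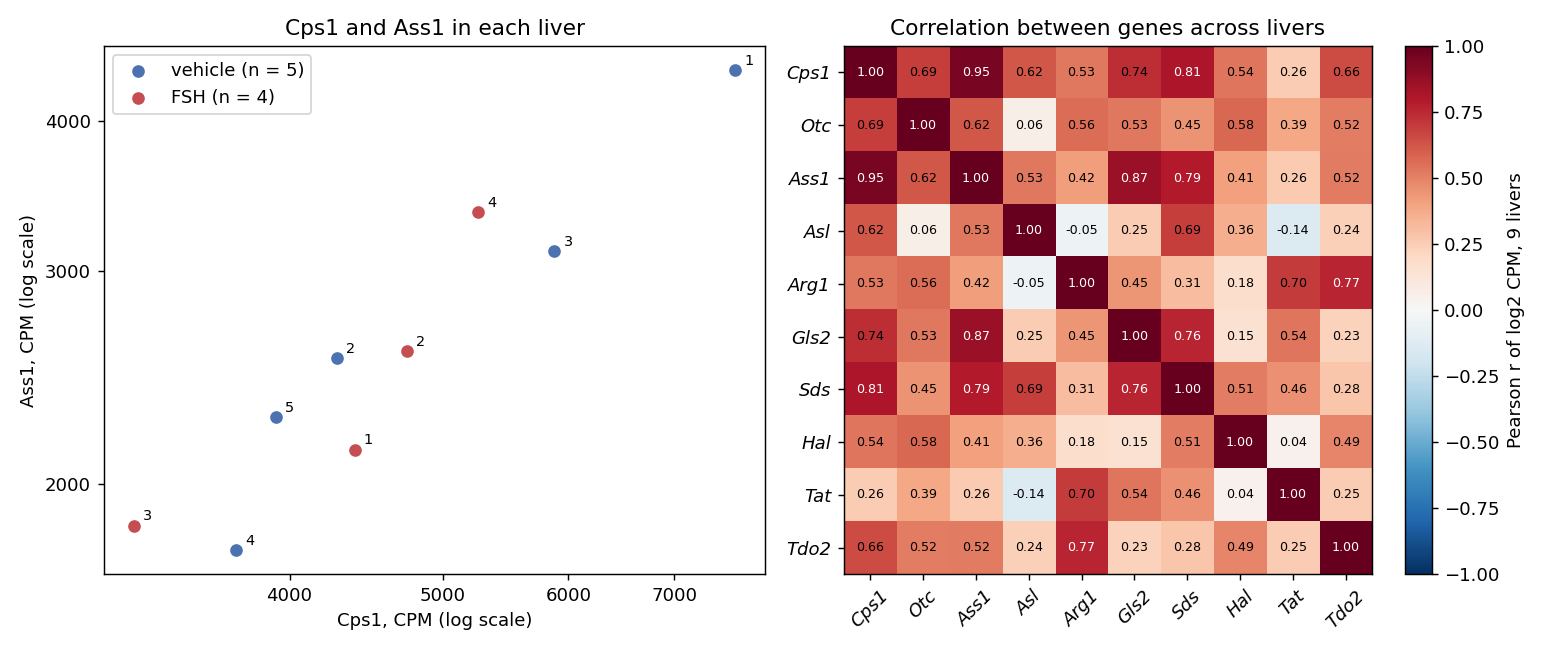
Left, Ass1 against Cps1 in CPM on log axes, 1 point per liver with its replicate number, blue for vehicle and red for FSH; right, Pearson r of log2 CPM over 9 livers for each pair of genes. The livers of both groups lie along a single line for Cps1 and Ass1 (r = 0.949), and the row of Tat runs from −0.140 with Asl to 0.699 with Arg1.

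The promoters of Tat, which had the largest difference, and of Cps1 and Ass1, which varied most closely together, are shown because cyclic AMP and glucocorticoids are known to act on these genes. RefSeq windows of build GRCr8 were at hand for 7 of the 10 genes. The 250 bases before the start are printed 5′ to 3′ on the strand of the gene, with capitals for matches to any of 7 motifs on either strand: TGACGTCA (cyclic AMP response element) and its core TGACG, the palindromic glucocorticoid response element and its core TGTTCT, TTGCNNAA (C/EBP), CCAAT and TATAAA. Each full element contains its core, so those matches overlap.
Tat promoter, chr19:54856354-54856603, plus strand: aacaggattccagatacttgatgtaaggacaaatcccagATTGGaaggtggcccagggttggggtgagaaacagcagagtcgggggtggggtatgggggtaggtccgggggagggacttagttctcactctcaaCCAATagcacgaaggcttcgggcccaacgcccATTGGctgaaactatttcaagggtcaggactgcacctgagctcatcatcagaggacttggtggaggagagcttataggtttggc
Cps1 promoter, chr9:76063613-76063862, plus strand: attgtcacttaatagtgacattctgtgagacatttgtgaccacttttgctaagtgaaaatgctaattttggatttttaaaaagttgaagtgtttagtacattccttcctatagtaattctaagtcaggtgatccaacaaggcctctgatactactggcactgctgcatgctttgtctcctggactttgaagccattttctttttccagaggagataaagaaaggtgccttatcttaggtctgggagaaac
Ass1 promoter, chr3:35149480-35149729, plus strand: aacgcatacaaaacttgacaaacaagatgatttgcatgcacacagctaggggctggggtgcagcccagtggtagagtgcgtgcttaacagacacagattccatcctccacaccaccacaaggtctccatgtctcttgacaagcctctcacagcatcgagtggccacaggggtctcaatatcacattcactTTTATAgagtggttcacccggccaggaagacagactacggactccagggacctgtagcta

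In the window of 300 bases, which runs 50 bases past the start, Tat had 3 matches to CCAAT, at −211 to −207, −116 to −112 and −84 to −80 from the start. At least 3 such matches were found in 3.02% of the 33469 windows of all genes, and at least 1 in 37.5%. Ass1 had 1 match to TATAAA on the opposite strand, at −60 to −55, a motif found in 14.2% of windows. Cps1 had no match to any of the 7. Among the other windows, Gls2 had 2 matches to TGACG (21.2% of windows have at least 1) and 1 to CCAAT, and Tdo2 had a match to CCAAT and a match to TATAAA. No window of these 7 genes held the glucocorticoid core (20.7% of windows), the C/EBP motif (10.6%) or the full elements for cyclic AMP (1.83%) and glucocorticoids (0.0149%). Distal elements lie outside these windows, and a match is a run of letters, not a site shown to bind.

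In 10 further lists of pathway and zonation genes, 0 of 137 tested genes passed in edgeR. At an unadjusted p under 0.05 were 12 (8.76%, 5 higher and 7 lower), against 11.6% of all tested genes. DESeq2 called 2 of the 135 with an adjusted p, Gldc and Aqp9, which is 1.48% against its 1.65% over all genes. Enzymes and carriers that support the cycle had 9 of 15 tested genes with fold changes below 0 and a median log2 fold change of −0.026, against 0.0019 over all tested genes. Slc25a13, the mitochondrial aspartate-glutamate carrier citrin that provides aspartate to Ass1, had 0.25 (SE 0.10, FDR 0.39 in edgeR). It stood at 103, 104, 104, 94.8 and 110.3 CPM with vehicle and 146, 127, 104 and 113 CPM with FSH, so that 3 of 4 FSH livers were above every vehicle liver, and the log2 value was 0.15 without FSH replicate 1. Fh, fumarate hydratase, which takes up the fumarate made by Asl, had −0.21 (SE 0.11, FDR 0.508 in edgeR).

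Carriers at the cell surface gave values on both sides. Of 15 tested amino acid and urea transporters 10 had fold changes above 0 and 5 below 0 (median 0.076). Aqp9, a channel of the hepatocyte membrane for glycerol and urea, stood at 193, 189, 162, 163 and 186 CPM with vehicle and 70.6, 144, 131 and 65.6 CPM with FSH. All FSH livers lay below all vehicle livers, as in 1.92% of tested genes. Aqp9 had −0.80 (SE 0.23, FDR 0.258 in edgeR) on the log2 scale, and DESeq2 gave an adjusted p of 0.0325. Slc14a1, a urea transporter, had a log2 value of −1.17 (SE 0.43, FDR 0.363 in edgeR) at a low level, 0.202 ± 0.133 CPM with FSH (SD, n = 4) and 0.471 ± 0.172 CPM with vehicle (SD, n = 5), so that it rests on few reads.

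In most genes of the other routes of amino acid breakdown the fold change was below 0, and none passed in edgeR. The share below 0 among all tested genes was 49.5%. Where genes of a route vary together between animals, their signs are not separate observations, and this was not measured for these lists. Whether these lists as sets differ from other genes was not tested. In histidine, phenylalanine and tyrosine breakdown 11 of 13 tested genes had fold changes below 0 (median −0.18). Qdpr, which regenerates the cofactor of phenylalanine hydroxylase, had −0.36 (SE 0.18, FDR 0.485 in edgeR), which lay between −0.56 without FSH replicate 4 and −0.24 without FSH replicate 3. Gchfr, which regulates the synthesis of that cofactor, had −0.26 (SE 0.15, FDR 0.537 in edgeR). In lysine and branched-chain amino acid breakdown 17 of 21 had fold changes below 0 (median −0.082), with −0.14 (SE 0.073, FDR 0.497 in edgeR) for Pcca, a subunit of propionyl-CoA carboxylase, and −0.15 (SE 0.092, FDR 0.582 in edgeR) for Mccc2, a subunit of methylcrotonyl-CoA carboxylase. In tryptophan breakdown 7 of 11 had fold changes below 0 (median −0.052). There Haao, a dioxygenase on the way to quinolinate, had −0.22 (SE 0.10, FDR 0.451 in edgeR), and Acmsd, which diverts that route away from NAD, had −0.69 (SE 0.40, FDR 0.55 in edgeR), a value that was −0.33 without vehicle replicate 1.

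In serine, glycine, threonine and proline breakdown 11 of 15 tested genes had fold changes below 0 (median −0.065). Gldc and Amt had the smallest p there, and both encode parts of the glycine cleavage system. Gldc, the glycine decarboxylase subunit, stood at 117, 90.7, 104, 79.6 and 60.8 CPM with vehicle and 32.7, 61.7, 34.9 and 63.5 CPM with FSH. The groups overlapped through vehicle replicate 5 and FSH replicates 2 and 4. Gldc had −0.91 (SE 0.25, FDR 0.236 in edgeR) on the log2 scale, and DESeq2 gave an adjusted p of 0.0211. Amt, the aminomethyltransferase subunit, stood at 33.2, 29, 31.7, 28.5 and 29.7 CPM with vehicle and 22.6, 27.4, 20.4 and 25.8 CPM with FSH. Its FSH livers all lay below its vehicle livers, as in 1.92% of tested genes. Amt had −0.34 (SE 0.10, FDR 0.254 in edgeR) on the log2 scale. The other tested parts of that system had values near 0, −0.061 (SE 0.073, FDR 0.798 in edgeR) for Gcsh, the carrier protein, and −0.055 (SE 0.076, FDR 0.831 in edgeR) for Dld, the dihydrolipoamide dehydrogenase.

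**Figure D5:**
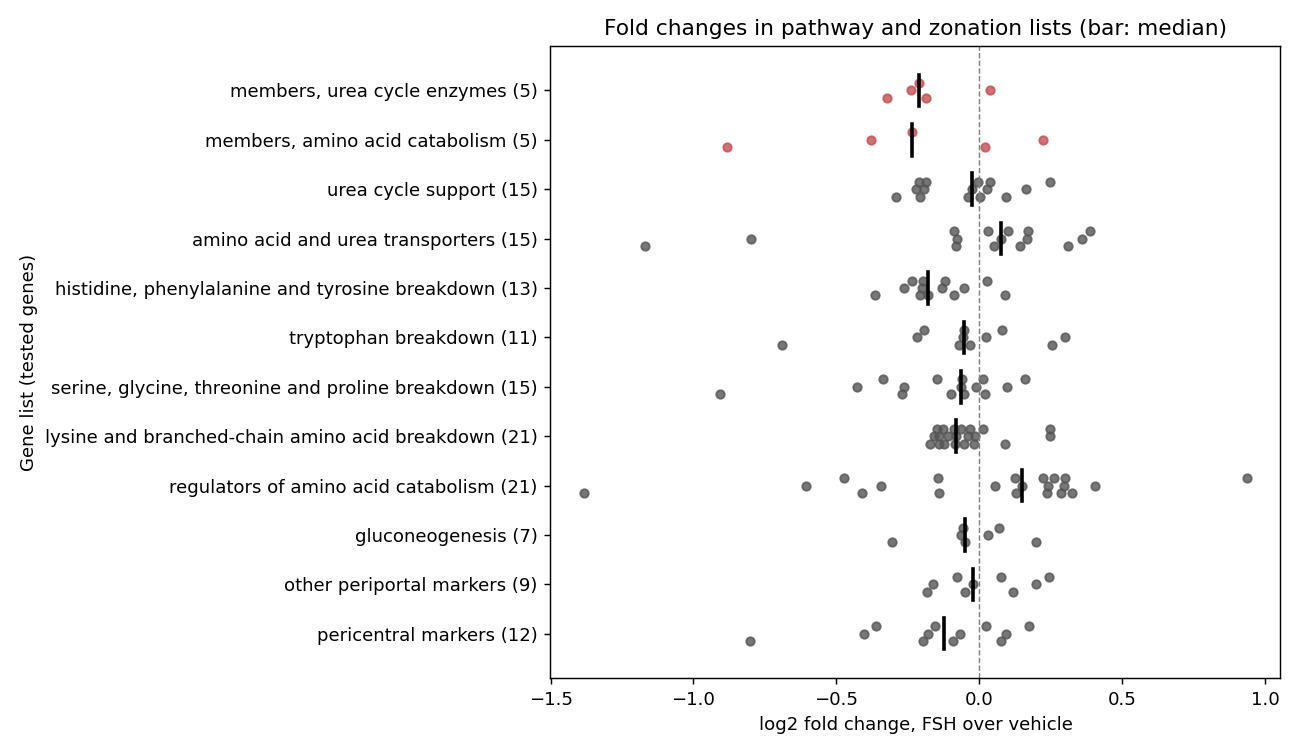
Log2 fold change of FSH over vehicle (horizontal axis) for each tested gene of the 2 groups described above (red) and of 10 further pathway and zonation lists (grey), with the median of each list as a bar and the number of tested genes in parentheses. List medians lie between −0.23 and 0.15, and none of the genes shown passed an FDR of 0.05 in edgeR.

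Of genes that control amino acid breakdown, 14 of 21 tested had fold changes above 0 (median 0.15). Hsd11b1, which regenerates active glucocorticoid inside the hepatocyte, stood at 121, 143, 184, 87.9 and 98.3 CPM with vehicle and 17.7, 49.1, 91.6 and 35.8 CPM with FSH. FSH replicate 3 lay inside the vehicle range and the other 3 FSH livers below it. Hsd11b1 had −1.38 (SE 0.40, FDR 0.274 in edgeR) on the log2 scale. Foxo1, a transcription factor restrained by insulin, stood at 13.5, 16.1, 16.4, 11.4 and 13.4 CPM with vehicle and 18.7, 17.1, 18.2 and 17.1 CPM with FSH. Its groups did not overlap, as in 4.11% of tested genes in either direction. Foxo1 had 0.33 (SE 0.11, FDR 0.321 in edgeR) on the log2 scale. In gluconeogenesis 4 of 7 tested genes had fold changes below 0. There Pck1, the cytosolic phosphoenolpyruvate carboxykinase, had 0.20 (SE 0.27, FDR 0.82 in edgeR), which lay between 0.015 without FSH replicate 3 and 0.46 without vehicle replicate 3. Ldhb, a lactate dehydrogenase subunit, had −0.31 (SE 0.15, FDR 0.46 in edgeR).

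Zonation markers outside the 10 genes gave no call. Other periportal markers had fold changes below 0 in 5 of 9 cases with a median of −0.021, with −0.16 (SE 0.11, FDR 0.607 in edgeR) for Hsd17b13, a lipid droplet enzyme, and −0.18 (SE 0.14, FDR 0.662 in edgeR) for Cyp2f4, a cytochrome P450. Hsd17b13 had −0.087 without vehicle replicate 1, and Cyp2f4 between −0.32 without FSH replicate 4 and −0.10 without FSH replicate 3. Pericentral markers had them in 8 of 12 cases with a median of −0.12. Glul, glutamine synthetase, which binds the ammonia that passes the urea cycle, stood at 493, 1051, 505, 436 and 688 CPM with vehicle and 683, 612, 663 and 621 CPM with FSH. The FSH livers lay close together inside the vehicle range, with 0.023 (SE 0.23, 95% interval −0.49 to 0.53, FDR 0.982 in edgeR) on the log2 scale, and 0.28 without vehicle replicate 2, the highest liver. Oat, ornithine aminotransferase, had −0.80 (SE 0.37, FDR 0.438 in edgeR), which was −0.38 without vehicle replicate 1, and Nkd1, a Wnt target, had −0.36 (SE 0.14, FDR 0.387 in edgeR).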

How the data were processed

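Messenger RNA of whole liver from 9 ovariectomised rats was read from both ends in libraries that keep the strand, per the labels' protocols. The authors deposited raw counts, whole numbers per gene that are not normalised. STAR, edgeR, DESeq2 and the build rn6 are listed in the submitters' processing notes; no source used here gives the counter, annotation or strand setting. Columns were matched to animals by their labels. Of 24496 genes, 8868 were listed at 0 in all libraries.

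The groups were tested with edgeR 4.0.16 under R 4.3.3 (quasi-likelihood F-test, TMM scaling, low counts filtered by group, p-values adjusted by Benjamini-Hochberg over the 11924 genes that passed, with 99.96% of all counts, and a threshold of FDR 0.05). A standard error is the size of the log2 fold change divided by the root of F. The steps were run on simulated counts with planted changes. The share of those changes that was called is not given here, so the absence of a call does not show that a gene was unchanged. Between libraries of a group, chi-square per degree of freedom was at least 25.9, so no library was a copy of another of its group. Libraries of different groups were not compared in this way. The labels name no sequencing batch. Correlations used log2 CPM (prior count 2) and exact permutation over all pairings. The reference holds no transcript lengths, so levels are not compared between genes, and its gene table is of another build, so gene coordinates are not given. No protein sequences were used.

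Named were all 10 genes and, from each other list, up to 4 genes past the threshold, or the 2 of smallest p where none passed, with Alb, Glul and Oat in any case; of the cell type lists, summed levels are given. The genes, lists and rules were chosen with earlier results of these data known. Alternatives were a replicate block, DESeq2 1.42.0, DESeq2-type size factors, total counts as the sole scaling, unfiltered counts, a filter of 1 CPM in 4 or more samples, an FDR of 0.10 and leaving out each animal.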

Additional observations from a re-analysis of the deposited data

Results flagged for a closer look

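Within each group, the gap from the highest or lowest animal to its neighbour was divided by the range, in 100 sets of 4 or 5 animals. In 4 sets an animal stood apart. A rate of 1 in 20 would give about 5, but that rate holds for separate sets of normally distributed values. Genes here vary together and many were named for a small p, so it is no measured chance level for these sets. Tat in vehicle replicate 2 was at 3116 CPM (next 1628). Among the other named genes, Pck1 in vehicle replicate 3 was at 5476 CPM (next 3159), Oat in vehicle replicate 1 at 1571 CPM (next 656) and Col1a1, a collagen chain of stellate cells, in vehicle replicate 4 at 19.8 CPM (next 8.97). Each is the highest animal of the vehicle group, and each is another animal. Tat had a log2 fold change of −0.58 without vehicle replicate 2.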

How the results depend on the processing

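None of the 10 genes passed under any alternative that was run, and the same held for the 190 genes of the other lists except in DESeq2 (5 genes: Aqp9, Gldc, Clec4g, Col3a1 and Hbb). Among all tested genes 4 passed, against 181 in DESeq2, 12 at an FDR of 0.10, and 0 to 4 on leaving out 1 animal (0 when vehicle replicate 1 or 4 or FSH replicate 1 or 3 was missing, 1 when FSH replicate 4 was, and 2 when vehicle replicate 3 or 5 was). The direction of a fold change turned in 11 of 150 values for the 10 genes: Ass1 (−0.19; −0.37 to 0.033 on leaving out 1 animal), Asl (−0.057 to 0.14) and Tdo2 (−0.23 to 0.24, and −0.0068 with total counts alone). It also turned for Glul (−0.091 to 0.28, and −0.0060 with total counts alone), Alb (−0.31 to 0.058), the Kupffer cell marker Timd4 (−0.025 to 1.11) and the neutrophil marker Csf3r (−0.086 to 0.59). The cause was not tested. With the replicate number as a block, 0 of the 10 genes and 5 of all genes passed, Asl had −0.042 and Tdo2 −0.064; the numbers did not pair the animals (correlations of deviations −0.0407 to 0.0351, 0 of 8 animals closest to their own number). The count of correlated pairs was 0 to 2 on leaving out 1 animal (0 without vehicle replicate 1 and 2 without vehicle replicate 2). Depth limits these genes little, since their lowest count in any library was 2184 (Sds).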
